A study of Mus musculus with 22 samples.

Results

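Transcript levels were compared within a group of 7 RNA sequencing libraries of mouse splenic monocytes that differed in how much haemoglobin RNA they carried. The erythroid-low libraries are Monocytes 1, 2 and 7, and the erythroid-high libraries are Monocytes 3, 4, 8 and 9. These 7 belong to 11 monocyte libraries and to 22 libraries in the whole series, which also holds 11 libraries of macrophages. All come from spleens of wild-type male C57BL/6 mice. Monocytes 7 of the erythroid-low set and Monocytes 8 and 9 of the erythroid-high set received ox-LDL, oxidised low-density lipoprotein, at 50 µg/mL over 24 hours. Monocytes 1 and 2 of the erythroid-low set and Monocytes 3 and 4 of the erythroid-high set were given vehicle. The treatment therefore crosses the split, with 1 ox-LDL and 2 vehicle libraries in the erythroid-low set and 2 of each in the erythroid-high set. The labels give neither an isolation date nor a batch, and do not say whether libraries came from separate mice or cultures.

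The libraries were chosen by their measured values: the sets were selected on the haemoglobin RNA of these same libraries, after 4 granulocyte-rich ones were set aside by their neutrophil RNA, so the difference between the sets is described here and not tested. A gene is called set apart when its 3 erythroid-low and 4 erythroid-high values do not overlap and the fitted change, with treatment as a covariate, is at least 2-fold. Counts per 1e+06 library counts (CPM) of single genes are scaled by trimmed mean of M values (TMM) factors over the 7 libraries. Sums over gene lists, and all values of the other 15 libraries, are CPM of the library total. Fold changes are log2 values, erythroid-low over erythroid-high, with their standard errors (SE).

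The spleen filters blood, and its red pulp holds red cells together with the macrophages that take up old ones, while its white pulp holds B and T lymphocytes. Developing red cells copy the globin genes and Alas2, the erythroid form of the first enzyme of haem synthesis, at very high levels. They then expel the nucleus and leave the marrow or spleen as reticulocytes, which keep globin mRNA for a short time. Reticulocytes have lost the nucleus in which factors such as Gata1 and Klf1 act, and RNA of those factors marks earlier, nucleated precursors.

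The 4 adult globin genes and Alas2 carry the split, and the promoters of Hba-a1, Hbb-bs, Hbb-bt and Alas2 are shown for that reason. That of Hba-a2, the near-identical copy of Hba-a1, is not shown. Each sequence is the 250 bases before the start of transcription in RefSeq, on the gene's own strand, 5′ to 3′, build GRCm38.p6. Capitals mark GATAA or its complement TTATC, the core that GATA factors bind, and CACCC or its complement GGGTG, the core bound by Klf1 and related factors. The deposited gene models of all 4 begin upstream of that start, inside the windows shown.
Hba-a1 promoter, chr11:32283422-32283671, plus strand: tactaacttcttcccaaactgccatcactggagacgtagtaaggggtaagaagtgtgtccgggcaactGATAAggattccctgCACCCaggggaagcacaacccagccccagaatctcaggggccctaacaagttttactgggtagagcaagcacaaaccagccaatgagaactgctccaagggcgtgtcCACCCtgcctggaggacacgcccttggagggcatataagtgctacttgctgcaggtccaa
Hbb-bs promoter, chr7:103827929-103828178, minus strand: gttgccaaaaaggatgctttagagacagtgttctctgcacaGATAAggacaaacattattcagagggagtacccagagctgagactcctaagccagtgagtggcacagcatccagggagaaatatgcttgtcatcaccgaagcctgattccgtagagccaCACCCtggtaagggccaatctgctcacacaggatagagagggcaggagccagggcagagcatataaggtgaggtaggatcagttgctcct
Hbb-bt promoter, chr7:103813924-103814173, minus strand: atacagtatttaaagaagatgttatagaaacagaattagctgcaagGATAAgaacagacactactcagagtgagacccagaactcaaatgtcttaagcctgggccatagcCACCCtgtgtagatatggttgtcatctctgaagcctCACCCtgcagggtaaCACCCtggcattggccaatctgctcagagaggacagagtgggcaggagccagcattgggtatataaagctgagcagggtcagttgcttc
Alas2 promoter, chrX:150547167-150547416, plus strand: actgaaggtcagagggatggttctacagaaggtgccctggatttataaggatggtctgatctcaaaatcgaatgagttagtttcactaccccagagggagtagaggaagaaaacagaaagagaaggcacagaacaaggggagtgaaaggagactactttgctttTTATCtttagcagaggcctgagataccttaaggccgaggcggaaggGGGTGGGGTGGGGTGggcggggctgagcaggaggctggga
Each of the 4 windows held 1 GATAA on either strand. CACCC, on either strand, was present 2 times in Hba-a1, 1 time in Hbb-bs, 3 times in Hbb-bt and 3 times in Alas2, where its copies run into each other. Over all 32851 windows of the same length in the table, 22.6% held GATAA, 52.0% held CACCC and 10.1% held both. A promoter window was matched for 7 of the 9 erythroid genes that were set apart lower, and 6 of these 7 held GATAA and 6 held CACCC. A gene was counted here if any of its windows held the motif, while the percentages are shares of single windows. The counts and the percentages are therefore not on the same scale. A match describes the letters only.

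Haemoglobin genes made up 0.0895%, 0.0436% and 0.0650% of all counts in Monocytes 1, 2 and 7, and 0.963%, 1.12%, 1.498% and 1.27% in Monocytes 3, 4, 8 and 9. In counts this was 37612, 19073 and 29517 in the erythroid-low libraries and 446227, 500657, 582274 and 577726 in the erythroid-high libraries. The highest erythroid-low library stood at 895 CPM and the lowest erythroid-high library at 9633 CPM, with no library in between. The 4 granulocyte-rich monocyte libraries, set aside for their neutrophil RNA, stood at 6438 to 8940 CPM, closer to the erythroid-high set. The 11 macrophage libraries stood at 0.380 to 2.06 CPM.

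**Figure D1:**
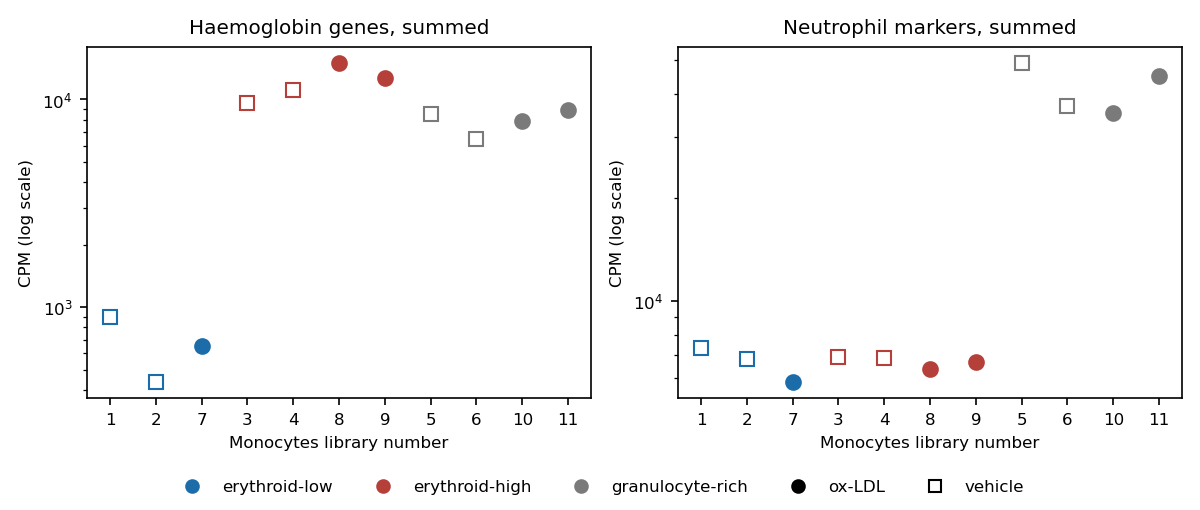
Summed CPM of the 7 haemoglobin genes (left) and of 13 neutrophil markers (right) in each of the 11 monocyte libraries, on log axes. Blue is erythroid-low, red erythroid-high and grey granulocyte-rich, filled circles are ox-LDL and open squares vehicle. The 3 erythroid-low libraries lie between 436 and 895 CPM of haemoglobin and the other 8 between 6438 and 14980 CPM, while the 7 blue and red libraries share a narrow range of neutrophil RNA.

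Other properties of the libraries overlapped between the sets. Library totals, in units of 1e+06 counts, were 42 to 45.4 in the erythroid-low set and 38.9 to 46.3 in the erythroid-high set, and 23335 to 24143 and 22633 to 24309 genes were detected. Mitochondrial transcripts took 0.206% to 0.335% of erythroid-low and 0.245% to 0.299% of erythroid-high counts. Neutrophil markers summed to 5818 to 7323 CPM in erythroid-low and 6372 to 6908 CPM in erythroid-high libraries, against 35151 to 49166 CPM in granulocyte-rich ones. Against their label of primary monocytes, both sets were rich in markers of mature dendritic cells, with sums of 19041 to 20312 CPM in the erythroid-low and 17092 to 20999 CPM in the erythroid-high libraries. The 12 classical monocyte markers summed to 4572 to 5720 CPM and 5096 to 8162 CPM in the same order of sets, most of it Lyz2.

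Of 17886 genes with enough counts, 679 (3.80%) were set apart higher and 184 (1.03%) lower in the erythroid-low libraries. These shares describe the split and are not a test. The median log2 fold change over all 17886 genes was -0.01. Most of the genes set apart were sparse: 352 of the higher and 131 of the lower ones averaged under 1 CPM, and 137 and 23 averaged at least 5 CPM. Of the genes that were higher, 145 were segments of antibody or T-cell receptor genes and 468 were protein coding genes, while 0 segments and 97 protein coding genes were lower. In bulk RNA, fewer cells of a type and less RNA per cell cannot be told apart, which holds for each gene group that follows.

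**Figure D2:**
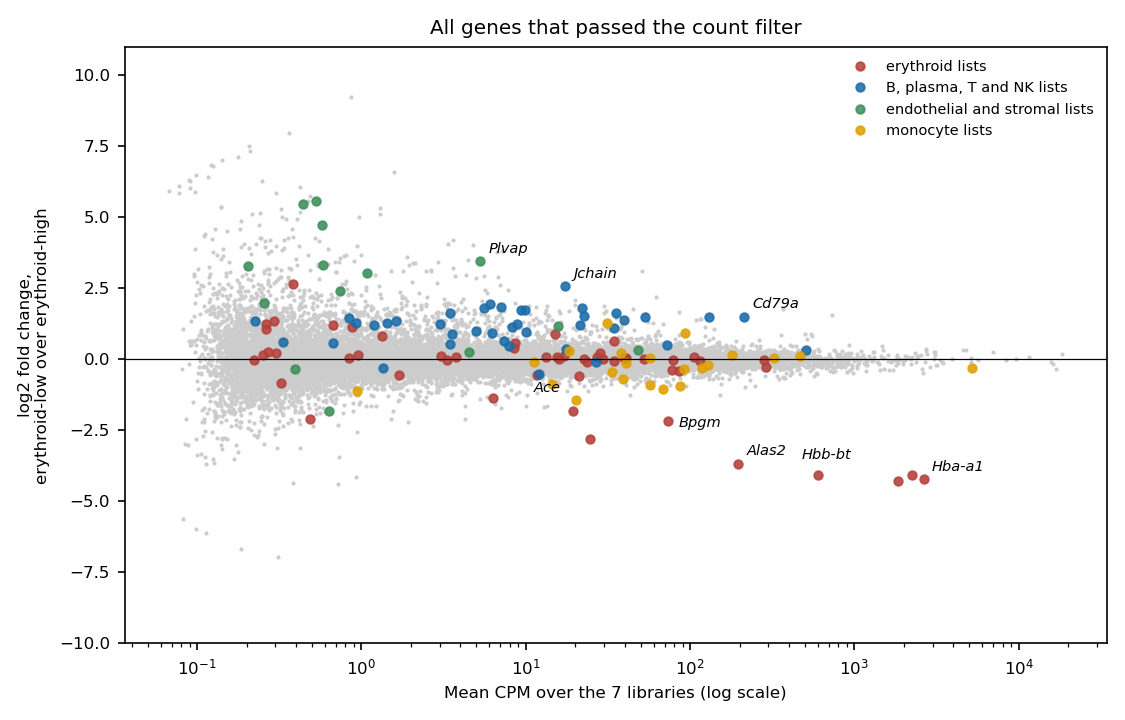
Fitted log2 fold change, erythroid-low over erythroid-high, against mean CPM over the 7 libraries (log axis) for the 17886 genes, with listed genes in colour. The globin genes and Alas2 stand alone at the lower right, lymphocyte genes lie mostly above 0, and fitted values of genes under 1 CPM spread widely because one set can hold few or no counts.

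The globin genes were lower by about the same amount. Hba-a1, an alpha-globin gene at chr11:32283511-32284465, had 292, 151 and 233 CPM in Monocytes 1, 2 and 7, against 3200, 3896, 5423 and 5296 CPM in Monocytes 3, 4, 8 and 9. Its log2 fold change was -4.21 ± 0.24 (SE). The adult beta-globin gene Hbb-bs, at chr7:103826534-103828096, had 300, 147 and 202 CPM in erythroid-low libraries, against 3040, 3558, 4862 and 3514 CPM in erythroid-high libraries, a log2 fold change of -4.07 ± 0.25. Within each set the libraries varied by less than the gap between the sets, with Monocytes 2 the lowest throughout. Hba-a2, at chr11:32296489-32297298, and Hbb-bt, at chr7:103812524-103813996, gave log2 fold changes of -4.29 ± 0.25 and -4.08 ± 0.27. The copies are nearly identical, since 86.9% of the 50-base windows of the Hba-a2 transcript and 58.3% of those of the Hbb-bt transcript occur in Hba-a1 and Hbb-bs, so the split of reads within each pair is uncertain. Alpha-globin counts exceeded beta-globin counts 1.27, 1.33 and 1.51 times in the erythroid-low libraries and 1.41, 1.45, 1.49 and 2.03 times in the erythroid-high ones, with Monocytes 9 standing above the others. The embryonic globin genes Hba-x, Hbb-y and Hbb-bh1 had 0 counts in the erythroid-low set and 2, 4 and 1 counts in the erythroid-high set.

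Of the listed genes of haem synthesis, the one for the first step split in the same way. Alas2, at chrX:150547375-150570638, had 30.1, 21.0 and 23.4 CPM in erythroid-low libraries, against 257, 322, 375 and 347 CPM in erythroid-high libraries, a log2 fold change of -3.68 ± 0.18. The other 12 listed genes of haem synthesis and mitochondrial iron all passed the count filter and 0 of them were set apart. Fech, the enzyme that inserts iron into the ring, averaged 63.5 ± 8.0 CPM in the erythroid-low and 88.6 ± 23.1 CPM in the erythroid-high libraries (SD), with overlapping values and a log2 fold change of -0.39 ± 0.14. The mitochondrial iron importer Slc25a37 had a log2 fold change of -0.57 ± 0.16 and overlapping values.

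Some genes of late red cell maturation were also lower in the erythroid-low set. Bpgm makes 2,3-bisphosphoglycerate, the ligand that lowers the oxygen affinity of haemoglobin. It had 21.8, 19.4 and 26.3 CPM in erythroid-low libraries, against 77.5, 87.0, 124 and 160 CPM in erythroid-high libraries (-2.17 ± 0.16). Every erythroid-high library was above every erythroid-low one, and the ox-LDL libraries Monocytes 8 and 9 were the highest. Isg20, an exonuclease gene also induced by interferon, had a log2 fold change of -1.82 ± 0.17.

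Several other listed erythroid genes did not follow the globins. Gata1 stood at 0.110 to 0.360 CPM in the erythroid-low and 0.169 to 0.268 CPM in the erythroid-high libraries, and Klf1 at 0.135 to 0.533 CPM and 0.105 to 0.380 CPM in the same order of sets. Summed over each set, in that order, Gata1 had 31 and 37 counts and Klf1 40 and 42, near the floor. A difference in nucleated precursors could not be judged from so few counts. The transferrin receptor Tfrc averaged 40.6 ± 10.0 CPM in the erythroid-low and 40.8 ± 8.1 CPM in the erythroid-high libraries (SD), and Slc4a1, the band 3 anion exchanger, 4.28 ± 2.31 and 3.41 ± 1.37 CPM. The macrophage libraries held 70.3 to 162 CPM of Tfrc, so it is not particular to red cell precursors. Epb41, a membrane skeleton gene that other cells use too, had a log2 fold change of -0.02 ± 0.19. Over the 5 erythroid lists, 61 genes were in the tables and 54 passed the count filter. Of these, 9 were set apart lower, 7 of them described above, and 2 higher, Tal1 and Fhdc1, both at most 1.35 CPM in any library. Over all genes, 1.03% were set apart lower and 3.80% higher. Tal1 was no longer set apart without Monocytes 2, 4 or 9 (0.88, 0.75 and 0.92), nor Fhdc1 without Monocytes 2 or 3 (0.93 and 0.68). Car2 and Tmcc2 from the maturation list were higher in the erythroid-low set without overlap but by less than 2-fold (0.66 ± 0.14 and 0.89 ± 0.19), and Cpeb4 of the same list was lower in the same way (-0.57 ± 0.16).

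**Figure D3:**
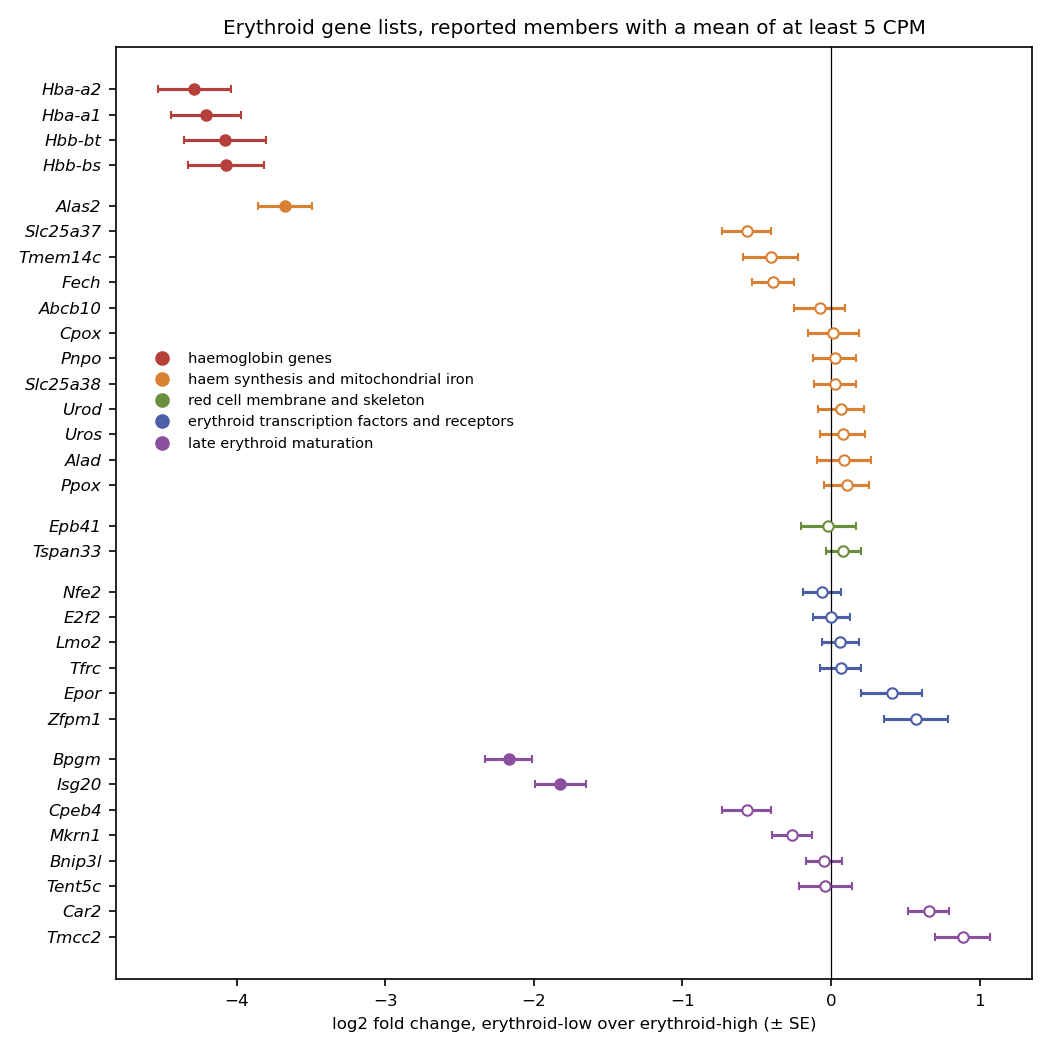
Log2 fold change, erythroid-low over erythroid-high, with its SE for reported genes of the erythroid lists that averaged at least 5 CPM. Filled points are genes set apart. The 4 globin genes, Alas2, Bpgm and Isg20 lie well below 0, and the remaining open points lie between -0.57 (Cpeb4 and Slc25a37) and 0.89 (Tmcc2).

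Among genes outside the erythroid lists, the largest shifts upward belonged to genes of endothelium and lymphocytes. Sparc, a matrix glycoprotein of stromal and endothelial cells, had 20.1, 12.2 and 10.3 CPM in erythroid-low libraries, against 1.18, 0.268, 1.81 and 1.06 CPM in erythroid-high libraries (log2 fold change 3.79 ± 0.44). Plvap, which forms the diaphragms of fenestrated endothelium, had 10.7, 11.2 and 10.5 CPM in erythroid-low libraries, against 0.695, 0.715, 0.736 and 2.27 CPM in erythroid-high libraries (3.46 ± 0.35). Its erythroid-low values were almost equal, and Monocytes 9 alone stood out among the erythroid-high ones. Next came Ctla2a, a cysteine protease inhibitor (2.93 ± 0.23), Jchain, which joins IgA and IgM into polymers (2.57 ± 0.19), Coch, a secreted protein of splenic follicular dendritic cells (2.44 ± 0.24), Nrgn, a calmodulin-binding protein (2.34 ± 0.23), and Cpm, a membrane carboxypeptidase (2.09 ± 0.17). The remaining 5 of the 12 highest were lymphocyte genes. They were the B-lineage gene Vpreb3 (1.94 ± 0.24), the BAFF receptor Tnfrsf13c (1.93 ± 0.16), the adhesion receptor Cd2 (1.88 ± 0.19), Gimap6 (1.88 ± 0.14) and the T-cell receptor adaptor Lat (1.88 ± 0.17).

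Among the cell type lists, B-cell markers had the largest share of members set apart. All 11 listed markers passed the count filter, and 10 were set apart higher and 0 lower, against 3.80% and 1.03% of all genes. The median log2 fold change was 1.48. Cd79a, a signalling chain of the B-cell receptor at chr7:24897381-24902197, had 434, 314 and 272 CPM in erythroid-low libraries, against 101, 133, 118 and 114 CPM in erythroid-high libraries (1.501 ± 0.160). Its partner Cd79b (1.501 ± 0.144) and Ms4a1, which encodes CD20 (1.40 ± 0.12), differed by similar amounts. Cr2, the complement receptor, was the 1 exception, at 3.22, 10.4 and 7.47 CPM in erythroid-low and 2.57, 4.85, 2.18 and 4.30 CPM in erythroid-high libraries. The summed list stood at 1052, 843 and 711 CPM in Monocytes 1, 2 and 7 and at 279, 341, 280 and 288 CPM in Monocytes 3, 4, 8 and 9. The granulocyte-rich libraries, at 247 to 538 CPM, were also below all 3 erythroid-low libraries.

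Antibody genes were higher as well, with a median log2 fold change of 1.56 over heavy-chain and 1.65 over kappa variable segments that passed the filter. These families were chosen after their values were seen. Among heavy-chain variable segments, 113 were in the tables, 73 passed the count filter and 47 were set apart higher. Among kappa variable segments 56 of 83 that passed were set apart higher, and 0 of either family were lower. Over all genes, 3.80% were set apart higher and 1.03% lower. The constant gene of IgM, Ighm, had 1271, 1197 and 1071 CPM in erythroid-low libraries, against 356, 392, 386 and 475 CPM in erythroid-high libraries (1.56 ± 0.13), and Ighd, of the naive B-cell isotype IgD, differed by 2.20 ± 0.18. Igha, the constant gene of IgA, had 110, 72.3 and 121 CPM in erythroid-low libraries, against 12.8, 5.10, 21.3 and 15.4 CPM in erythroid-high libraries (3.10 ± 0.28), a wider gap than that of Ighm. The granulocyte-rich libraries held 76.8 to 95.4 CPM of Igha, within the erythroid-low range, so a high level was not particular to the erythroid-low set. The IgG constant genes were not set apart. Ighg2b had 3.36, 7.24 and 6.13 CPM in erythroid-low and 1.58, 28.7, 1.47 and 2.45 CPM in erythroid-high libraries, with Monocytes 4 far above the rest, and Ighg2c was likewise highest in Monocytes 4, at 23.6 CPM. Segments of 1 family are alike in sequence, and the division of reads among them is uncertain. Of the 6 plasma cell markers, Jchain and Mzb1 (1.20 ± 0.30) were set apart higher, while Prdm1, a regulator of plasma cell identity that other cells use too, had a log2 fold change of -0.09 ± 0.16.

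Most T-cell markers were higher too. Of 15 T-cell markers 8 were set apart higher, against 3.80% of all genes. Without overlap 13 were higher and 0 lower, where 7.68% of all genes were higher and 4.85% lower. The median log2 fold change of the list was 1.14. Lck, the kinase that starts T-cell receptor signalling, had 50.6, 61.1 and 61.0 CPM in erythroid-low libraries, against 19.1, 15.8, 21.1 and 19.0 CPM in erythroid-high libraries (1.65 ± 0.14). The transcription factors Lef1 (1.52 ± 0.17) and Bcl11b (1.24 ± 0.17) and the CD8 beta chain Cd8b1 (1.73 ± 0.23) were set apart as well. Tcf7, a factor that dendritic precursors also use, made up most of the list's sum and overlapped, with a log2 fold change of 0.34 ± 0.13. Of 140 T-cell receptor genes 26 passed the filter and 17 were set apart higher, none lower. All 9 Gimap genes in the tables, a cluster of lymphocyte GTPases on chromosome 6 that was picked after its values were seen, were set apart higher, with sums of 178 to 193 CPM in erythroid-low and 53.5 to 64.6 CPM in erythroid-high libraries. In Monocytes 5, a granulocyte-rich library, Lck reached 50.4 CPM and Cd8b1 16.8 CPM of the library total, levels near those of the erythroid-low libraries, and the summed T-cell receptor genes of the granulocyte-rich libraries ran from 21.1 to 84.1 CPM, against 71.8 to 78.7 CPM in erythroid-low ones. NK-cell markers were mixed. Of 10 listed, 9 passed the filter, 2 were set apart higher and 4 were higher without overlap. Over all genes these shares were 3.80% and 7.68%. Nkg7, a cytotoxic granule protein (1.64 ± 0.22), and Eomes, a transcription factor (1.27 ± 0.33), were set apart higher, while Klrd1, the CD94 receptor and the most abundant of the list, had a log2 fold change of -0.52 ± 0.18 with overlapping values.

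Endothelial markers were low in level and mostly higher in the erythroid-low set, and stromal markers were mixed. Of 8 endothelial markers 7 passed the filter and 5 were set apart higher, against 3.80% of all genes. Stab2, the scavenger receptor of sinusoids, had 25.5, 18.9 and 23.5 CPM in erythroid-low libraries, against 8.58, 9.77, 14.0 and 9.43 CPM in erythroid-high libraries (1.17 ± 0.18). The junction gene Cdh5 had 1.76, 0.585 and 1.30 CPM in erythroid-low libraries, against 0.0843 CPM in Monocytes 3 and 0 in Monocytes 4, 8 and 9, and Tie1, an endothelial receptor, was at most 0.0894 CPM in the erythroid-high set. The endothelial sum was 98.6, 100 and 95.6 CPM in erythroid-low libraries, against 59.2, 56.6, 59.1 and 60.4 CPM in erythroid-high libraries. Pecam1, which myeloid cells also use, was the largest share, at 51.5 to 57.6 CPM in erythroid-low and 39.7 to 49.6 CPM in erythroid-high libraries. Of 10 stromal markers 7 passed, with Cxcl12, Col1a1 and Col1a2 set apart higher, Pdgfrb lower and the other 3 overlapping, none of the 4 above 2.78 CPM. The stromal sums nearly met, at 3.63 CPM in Monocytes 2 and 3.09 CPM in Monocytes 9. The collagen gene Col1a2 had 1.11, 0.495 and 1.98 CPM in erythroid-low libraries, against 0.0843, 0.0894, 0.158 and 0.185 CPM in erythroid-high libraries.

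Markers of other blood cell types differed in part, most of them at low levels. Of 14 platelet and megakaryocyte markers 11 passed and 5 were set apart higher, against 3.80% of all genes. Pf4, the most abundant, overlapped, at 44.1, 21.8 and 33.0 CPM in erythroid-low and 30.9, 22.5, 40.9 and 27.9 CPM in erythroid-high libraries. The basophil protease Prss34 had 268 counts in the erythroid-low set and 0 in the erythroid-high set, at least 119.5-fold higher with a floor of 3 counts over the set, and most of it was in Monocytes 2. This bound covers counting error only. Prss34 stood at 0.369 to 6.68 CPM in the granulocyte-rich libraries, against 0.232, 5.06 and 0.725 CPM in Monocytes 1, 2 and 7. Its presence was therefore not particular to the erythroid-low set. Eosinophil, progenitor and mast cell markers that were set apart, Il5ra, Cd34 and Cpa3, did not exceed 3.20 CPM in any library. Cpa3 was set apart in 3 of 7 fits that each left out 1 library, and was no longer so without Monocytes 1, 2, 3 or 4 (0.77 without Monocytes 3, 0.91 without Monocytes 4). Too few counts remained to fit it without Monocytes 1 or 2. The platelet integrin Itgb3 (1.097 ± 0.273) was no longer set apart without Monocytes 7 or 9 (0.72 and 0.94). It stood at 6.00, 10.1 and 6.44 CPM in Monocytes 1, 2 and 7, and at 4.86 to 27.8 CPM in the granulocyte-rich libraries.

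**Figure D4:**
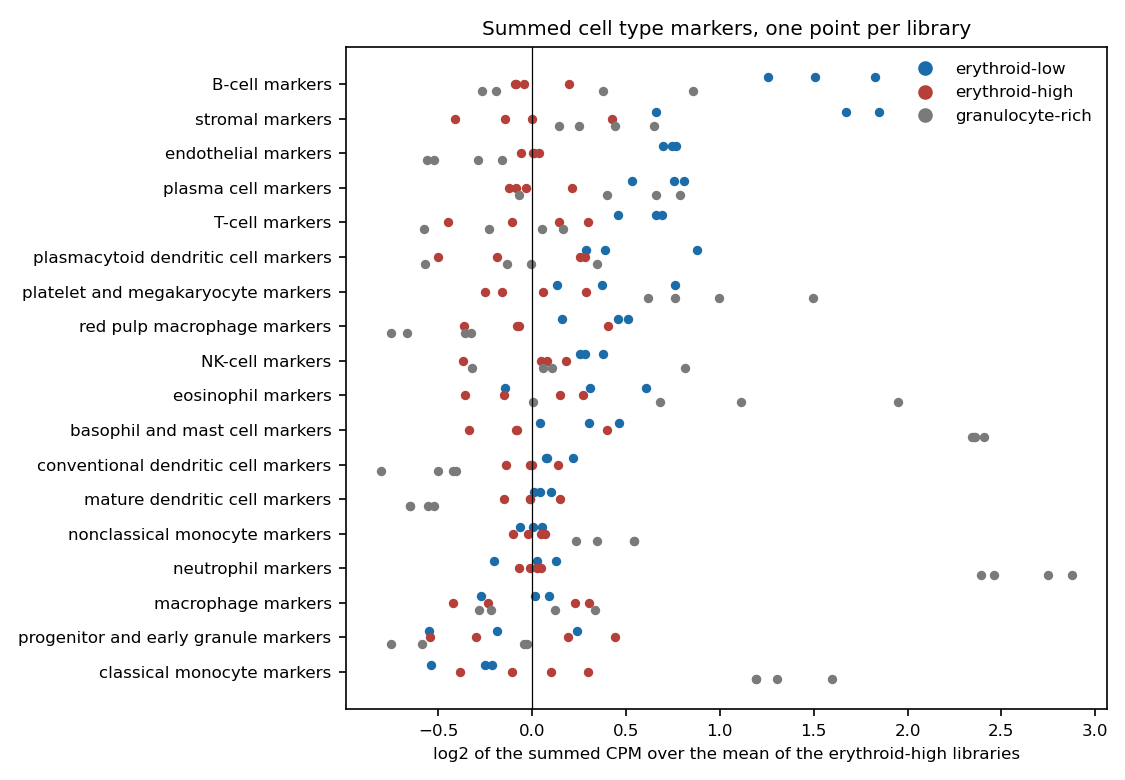
Summed CPM of each cell type list in each monocyte library, as log2 of its ratio to the mean of the 4 erythroid-high libraries. Blue is erythroid-low, red erythroid-high and grey granulocyte-rich, 1 point per library. B-cell, stromal, endothelial, plasma cell and T-cell sums of the erythroid-low libraries lie wholly to the right of the erythroid-high ones, while neutrophil, mature dendritic and nonclassical monocyte sums overlap.

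Genes of splenic macrophages followed in part. Of 15 red pulp macrophage markers, all passed the filter, 2 were set apart higher (3.80% of all genes were) and 7 did not overlap, all higher (7.68% of all genes), with a median log2 fold change of 0.40. Marco, a scavenger receptor of marginal zone macrophages, had 192, 152 and 182 CPM in erythroid-low libraries, against 87.7, 57.6, 104 and 83.4 CPM in erythroid-high libraries (1.13 ± 0.17), and 0.97 without Monocytes 4. Cd163, the receptor for haemoglobin bound to haptoglobin, had 11.1, 12.96 and 12.6 CPM in erythroid-low libraries, against 5.35, 3.02, 3.57 and 2.77 CPM in erythroid-high libraries (1.71 ± 0.22). Haem handling genes did not differ in the same way. Haem oxygenase Hmox1 overlapped between the sets (0.08 ± 0.21), as did the iron exporter Slc40a1 (0.11 ± 0.12) and Spic, the haem-induced factor of red pulp macrophages (0.40 ± 0.12). The complement genes C1qa, C1qb and C1qc were higher without overlap, by 0.67 to 0.90 on the log2 scale. Of 12 general macrophage markers 0 were set apart, and the list's median was -0.09.

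The genes that were lower outside the erythroid lists were fewer and smaller in size, and several are used by monocytes. Cd151, a tetraspanin, had 4.96, 2.50 and 2.31 CPM in erythroid-low libraries, against 17.7, 6.73, 10.0 and 5.39 CPM in erythroid-high libraries (-1.72 ± 0.35), a group that reached close to the erythroid-low values. Olr1 encodes LOX-1, a receptor for oxidised LDL. It had 4.15, 4.00 and 5.32 CPM in erythroid-low libraries, against 16.7, 15.8, 11.8 and 12.1 CPM in erythroid-high libraries (-1.66 ± 0.19). Ace, the angiotensin-converting enzyme of nonclassical monocytes, had 10.5, 9.90 and 10.5 CPM in erythroid-low libraries, against 29.0, 34.2, 22.1 and 24.8 CPM in erythroid-high libraries (-1.44 ± 0.15). The chemokine receptor Cx3cr1 had 54.8, 44.6 and 34.1 CPM in erythroid-low libraries, against 117, 107, 63.2 and 58.1 CPM in erythroid-high libraries (-1.04 ± 0.14), which missed 2-fold without Monocytes 2 (-0.93) or 3 (-0.97). Ace and Cx3cr1 were 2 of 10 nonclassical monocyte markers, and the other 8 were not set apart, among them Treml4 (0.16 ± 0.14) and Nr4a1 (-0.13 ± 0.14). Over all genes, 1.03% were set apart lower.

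The rest of the 12 lowest had mixed roles. They were Smpdl3b, a lipid phosphodiesterase (-1.57 ± 0.18), the chloride channel Best1 (-1.32 ± 0.25), the betaine transporter Slc6a12 (-1.25 ± 0.17), the lipoxygenase Alox15 (-1.25 ± 0.21), the C-type lectin Clec4a1 (-1.24 ± 0.16), Gstm2-ps1 (-1.23 ± 0.18), Ldlrad3 (-1.20 ± 0.20), thrombomodulin Thbd (-1.16 ± 0.20) and the chemokine Ccl3 (-1.07 ± 0.18). Gstm2-ps1 is a pseudogene that can share reads with its parent, so its value is uncertain. Ccl3 and Cxcl2 (-1.07 ± 0.34) were the inflammatory genes set apart, of 18 listed, against 1.03% of all genes set apart lower. Il1b overlapped (-0.51 ± 0.15). Ccl3 missed 2-fold without Monocytes 2 (-0.97) or 3 (-0.99), and Cxcl2 without Monocytes 1 (-0.88), 2 (-0.92) or 3 (-0.61).

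Classical monocyte markers went both ways. Of 12 that all passed the filter, Cd14, Fn1, F13a1 and Ccr2 were lower without overlap, by 0.68 to 0.93 on the log2 scale. Plac8, which B cells and plasmacytoid dendritic cells also express, was set apart higher, at 49.3, 39.3 and 50.7 CPM in erythroid-low libraries, against 18.0, 17.5, 23.0 and 20.6 CPM in erythroid-high libraries (1.28 ± 0.13). Lyz2, the lysozyme of myeloid cells, overlapped (-0.32 ± 0.14).

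Markers of mature dendritic cells, abundant in all 7 libraries, were not set apart. Ccr7, the receptor for homing to lymph nodes, had 8316, 8412 and 8098 CPM in erythroid-low libraries and 8272, 8835, 7813 and 8510 CPM in erythroid-high libraries, a log2 fold change of -0.02 ± 0.10. Of 10 mature and 11 conventional dendritic cell markers 0 were set apart. All 9 MHC class II genes had positive fold changes with a median of 0.35, and H2-Ob, a chain of the DO peptide-loading regulator of B cells, was set apart higher (1.33 ± 0.13). Among 9 plasmacytoid markers Ly6d, which B cells share, was set apart higher (1.41 ± 0.15), and Siglech, the defining receptor, did not exceed 1.23 CPM in any library. In the lists of interferon response, lysosome, sterol synthesis, NRF2 antioxidant, glycolysis, cell cycle and immediate-early genes 0 members were set apart, and their medians lay between -0.13 and 0.25. The cell cycle list had the highest of these medians, with 21 of 23 members positive and 5 higher without overlap, against 7.68% of all genes. Among 12 genes of iron handling only Cp was set apart and among 14 matrix genes only Plau, both higher and both at most 1.52 CPM. Over all genes, 3.80% were set apart higher. Cp missed 2-fold without Monocytes 1, 7 or 9 (0.91, 0.81 and 0.91).

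The ox-LDL effect could be tested across the split, because the treatment comes from the labels and was not used to form the sets. With the set as a covariate, edgeR's quasi-likelihood test with Benjamini-Hochberg adjustment called 94 genes higher (0.526%) and 240 lower (1.34%) of 17886 with ox-LDL. Without the set in the model, 0 of 16968 genes were called in either direction, and 2689 had an unadjusted p under 0.05, against 3397 with it. The calls also rested on single libraries: without Monocytes 4, 2 genes were higher and 0 lower, without Monocytes 9, 0 and 0, without Monocytes 3, 6 and 2, and without Monocytes 1, 281 and 561. DESeq2 called 517 higher and 750 lower. Because the labels name no separate mice or cultures, these p-values rest on library-to-library spread alone, which may be technical.

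Among genes called higher with ox-LDL were 2 of lipid uptake and storage, Cd36 and Plin2, and 2 with other roles, Mmp12 and Akr1b8. Cd36, a scavenger receptor for oxidised LDL at chr5:17781690-17888801, had 525, 865 and 771 CPM in the ox-LDL libraries Monocytes 7, 8 and 9, against 234, 228, 365 and 267 CPM in the vehicle libraries Monocytes 1, 2, 3 and 4. Its log2 fold change, ox-LDL over vehicle, was 1.30 ± 0.13 (edgeR adjusted p = 0.0070, higher in 3 of 3 ox-LDL libraries than in every vehicle one). The coat protein of lipid droplets, Plin2, had 903, 1419 and 1751 CPM with ox-LDL, against 532, 483, 637 and 544 CPM with vehicle (1.19 ± 0.15, edgeR adjusted p = 0.0083). Mmp12, macrophage elastase, rose by 1.14 ± 0.14 and Akr1b8, an aldo-keto reductase of the NRF2 group, by 1.35 ± 0.15, both with an edgeR adjusted p of 0.0083. In each of these genes the erythroid-low ox-LDL library had the lowest ox-LDL value. Of 14 alternatives, the call was lost in 2 for Cd36, 3 for Mmp12, 3 for Akr1b8 and 4 for Plin2, with edgeR adjusted p up to 0.0846 for each.

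Beyond these the largest increases were in Ednrb, the endothelin B receptor (1.76 ± 0.21), Ptgr1, a prostaglandin reductase (1.53 ± 0.20), the secreted protein Angptl2 (1.43 ± 0.18) and the protease Ctsk (1.26 ± 0.23). Of 16 genes of lipid uptake, storage and efflux 6 were called higher and 0 lower, and of 16 NRF2 antioxidant genes 5 and 0. Over all genes, 0.526% were called higher and 1.34% lower. The further lipid genes were Soat1, Lpl, Msr1 and Abcg1, and the further NRF2 genes Prdx1, Gclm, Gclc and Srxn1, all named after their values were seen. Olr1, lower in the erythroid-low set, was not called for ox-LDL (-0.12 ± 0.18, edgeR adjusted p = 0.780).

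Of the 6 genes that fell most with ox-LDL, 5 were highest in Monocytes 3 and 4, and Cotl1 in Monocytes 3 and 1. Notch2, a receptor needed for splenic dendritic and marginal zone B cells, had 40.2, 42.8 and 31.5 CPM in the ox-LDL libraries, against 63.8, 84.0, 154 and 192 CPM in the vehicle libraries Monocytes 1, 2, 3 and 4 (-1.66 ± 0.25, edgeR adjusted p = 0.026). Oas3, an antiviral sensor, had 5.96, 8.09 and 6.06 CPM with ox-LDL, against 11.9, 12.8, 25.6 and 36.5 CPM with vehicle (-1.70 ± 0.23, edgeR adjusted p = 0.015). In both, all 3 ox-LDL libraries were below every vehicle library, and both erythroid-high vehicle libraries were above both erythroid-low ones. The others were Mir6236 (-2.11 ± 0.38), Cadps2 (-1.998 ± 0.45), Notch1 (-1.69 ± 0.33) and Cotl1 (-1.64 ± 0.35). Mir6236 is annotated as a microRNA gene, and the libraries were made from polyadenylated RNA. Which transcript its counts came from is therefore uncertain. Of 20 interferon response genes 4 were called lower and 0 higher, against 1.34% and 0.526% of all genes.

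**Figure D5:**
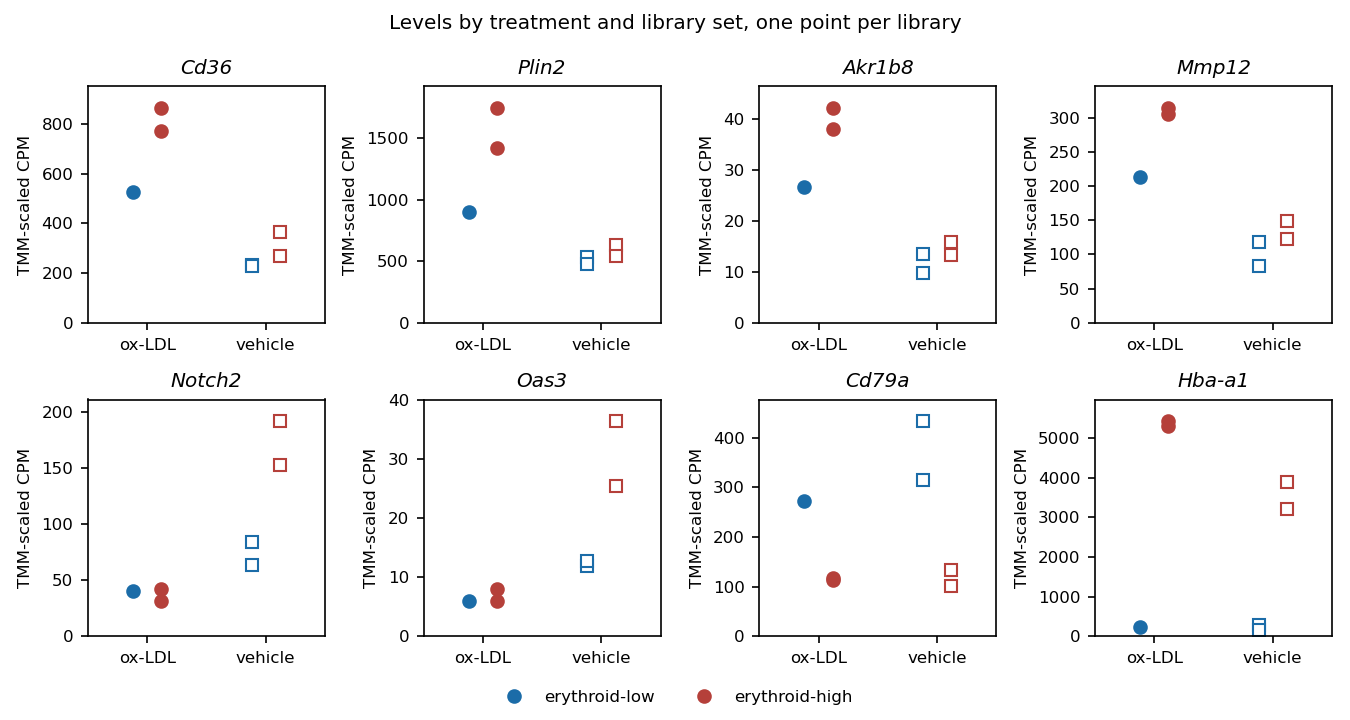
TMM-scaled CPM in each of the 7 libraries for 6 genes called for ox-LDL and for Cd79a and Hba-a1, by treatment, blue erythroid-low and red erythroid-high. Ox-LDL points stand above vehicle points for Cd36, Plin2, Akr1b8 and Mmp12 and below them for Notch2 and Oas3, while Cd79a and Hba-a1 separate by set.

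Among genes set apart lower between the sets, those also called lower with ox-LDL were Cx3cr1 (-0.75 ± 0.14 with ox-LDL, edgeR adjusted p = 0.028) and Smpdl3b (-0.89 ± 0.18, edgeR adjusted p = 0.033). Whether the ox-LDL effect differs between the sets was tested with an interaction term, chosen after the data were seen. It called 0 of 17886 genes in edgeR, where 826 had an unadjusted p under 0.05, and 0 in limma voom, where 857 did. With 1 erythroid-low ox-LDL library this does not show that the effects are alike.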

How the data were processed

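RNA was sequenced from polyadenylated RNA of 22 libraries, 11 of monocytes, made with a SMARTer low-input kit per the labels' protocols. Reads were aligned with STAR 2.7.9a to GRCm38 and counted with featureCounts 2.0.3 of Subread, per the submitters' processing notes. Strandedness, annotation release and the treatment of multiply aligned reads were not given in the sources used here. For each gene the authors deposited raw counts, and beside them 3 normalized columns. The authors' CPM equals counts over the library total, their FPKM is that CPM per kilobase of gene, and their TPM is rescaled after the length correction. All 55487 genes followed these relations. Only the raw counts entered the analysis.

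The sets were formed from haemoglobin counts of these libraries, and the members and gene lists were chosen with earlier results of these data known. Counts of the 7 libraries were fitted in edgeR 4.0.16 (R 4.3.3) with set and treatment as terms, TMM factors and the default filter on low counts (filterByExpr), in one quasi-likelihood model that serves both contrasts. The set contrast was given no p-value. The ox-LDL contrast was tested with 2-sided quasi-likelihood F tests, Benjamini-Hochberg adjusted over 17886 genes, and called under 0.05. Standard errors come from the F statistic. On simulated counts with known changes the fits were tested before use.

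Named genes are the 12 highest and 12 lowest fold changes outside the erythroid lists among genes set apart with a mean of at least 5 CPM and a gene name that is no antibody or T-cell receptor segment, up to 4 members set apart per list (otherwise the 2 most abundant), and for ox-LDL the 6 highest and 6 lowest called genes with Cd36, Plin2, Akr1b8 and Mmp12. Results for a few listed genes are left out and not reported here. Other listed genes in the text were named after their values were seen. Promoter windows are from RefSeq, GRCm38.p6. Alternatives were DESeq2 1.42.0, voom in limma 3.58.1, other normalizations, filters, fold limits and covariates, 1 treatment at a time, and each library left out. Totals were 38.9 to 46.3 in units of 1e+06 counts in the 7 libraries. No molecular identifiers were counted, so bounds cover counting error only.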

Additional observations from a re-analysis of the deposited data

Results flagged for a closer look

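Within the 4 erythroid-high libraries, 1 library stood far from the other 3 in 13 of 139 named genes and list sums. For independent normal values from a single population, the limit used flags about 1 in 20. These 4 libraries mix ox-LDL and vehicle, and the list sums share genes with the named ones. The rate of 1 in 20 is therefore not the chance rate for these items. Monocytes 9 was the high one for Plvap (2.27 CPM, next 0.736), Coch (3.17 CPM, next 1.71), Best1 (10.98 CPM, next 6.99), Alox15 (14.9 CPM, next 13.3), Mcm6 (90.3 CPM, next 73.0), Ngp (1812 CPM, next 1409) and the summed immediate-early and heat-shock genes (2688 CPM, next 2208). Monocytes 8 was the high one for Hmox1 (2852 CPM, next 1585) and Pdgfrb (1.21 CPM, next 0.832). Monocytes 3 was high for Cxcl2 (6.32 CPM, next 2.91) and for Cdh5 (0.0843 CPM, the others 0), and low for Cpa3 (0.127 CPM, next 0.157). Monocytes 4 was high for the summed B-cell markers (341 CPM, next 288). For Plvap, Coch and the B-cell sum the high erythroid-high library was still below every erythroid-low library. The sets of 3 erythroid-low libraries were too small for this look.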

How the results depend on the processing

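No paired analysis was made because the labels do not say which vehicle and ox-LDL libraries share an origin. For genes set apart higher in the erythroid-low set (679), ox-LDL libraries alone gave 1313 and a 4-fold limit 230, and leaving out each library gave 706 to 783. For genes set apart lower (184), the values were 345 with no filter on low counts, 590 in vehicle libraries alone, 955 in ox-LDL libraries alone, 416 at 1.5-fold and 40 at 4-fold, and leaving out each library gave 202 to 385. Where libraries were left out, fewer values have to stay apart, and the looser filter and fold limit admit more genes by construction. For ox-LDL genes called higher (94), edgeR with no filter gave 444, DESeq2 517, limma voom 164 and edgeR with no set covariate 0, and leaving out each library gave 0 to 281. For ox-LDL genes called lower (240), the counts were 883 with no filter, 750 with DESeq2 and 0 with no set covariate, and 0 to 561 with each library left out. The cause of these shifts was not tested. Other counts stayed within 1.5 times. Of 1467 values of 92 genes between the sets, 98 moved by more than their spread and 0 reversed. Of 196 values of 14 ox-LDL genes, 51 lost the call and 0 reversed. All 14 lost it with no set covariate and without Monocytes 9.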
